A study of Ictidomys tridecemlineatus with 5 samples.

Results

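The mitochondrial ribosomal proteins of the thirteen-lined ground squirrel, Ictidomys tridecemlineatus, were followed in RNA from eye tissue and from retina. Members were chosen by their best Swiss-Prot hit, as assembled transcripts whose hit description starts with 39S or 28S ribosomal protein. Transcripts were grouped by the entry name before the species code. The rule found 77 proteins among 15938 in the whole series, 47 with a 39S and 30 with a 28S description. The rule itself uses no measured level, though it was set with earlier results of these data known. The description ended in "mitochondrial" for all 77. In the RefSeq gene table of assembly mIctTri1.hap1, 75 of the 77 gene symbols were found, MRPS36 was found as Kgd4, and MRPS5 was not matched.

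Mitochondria keep a ribosome of their own. It translates the few messages of the mitochondrial genome, which encode core subunits of the respiratory chain and the ATP synthase. Its large subunit is called 39S and its small subunit 28S. All of its proteins are encoded in the nucleus, made in the cytosol and imported, and many have no counterpart in bacteria. Photoreceptors pack mitochondria into their inner segments, and extraocular muscle and pigment epithelium are also rich in them.

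The animals were wild type, and the sources used here name no treatment, age or sex. Eye tissue gave 2 libraries and retina 3, and per the labels each preparation pooled RNA of 4 ground squirrels. The tables hold a single value per transcript and tissue, so no difference between tissues has a replicate check and none was tested. Values were read as RPKM, reads divided by transcript length in kilobases and by a library total, which was 264219334 reads in eye and 355988270 in retina. Recovered reads summed to 19.2 times that total over eye transcripts and 10.5 times over retina transcripts, more than reads counted once each could give. A protein's level is the RPKM of its highest transcript. A difference is log2(eye RPKM + 1) minus log2(retina RPKM + 1), which understates the change of low genes.

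Levels of marker genes followed the tissue labels. Of 13 markers of pigment epithelium, lens, cornea, connective tissue and skeletal muscle, 12 were at least 2-fold higher in eye. The remaining one, the skeletal actin ACTA1, whose sequence is close to that of other actins, had 952 RPKM in eye and 601 in retina. Summed over the 13, the level was 11031 RPKM in eye and 642 in retina. In retina the lens crystallin CRYAA had 0.530 RPKM and the corneal keratins KRT12 and KRT15 had 1.29 and 0.372, while RPE65 of the pigment epithelium had 17.5. The 8 markers of photoreceptors and inner retinal neurons were all lower in eye, at 4589 RPKM summed against 8548, and 2 of them at least 2-fold. Eye tissue thus held retinal and non-retinal RNA together. In such bulk RNA a smaller share of cells of a type and less RNA per cell cannot be told apart, and the part of these cells in the differences given here was not tested.

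The ribosomal members were assembled as mostly long transcripts. There were 207 member transcripts for 75 proteins in eye and 227 for 77 proteins in retina. Median transcript length was 837 bases in eye and 1021 in retina. Of the transcripts under 200 bases, 29 of 34 in eye and 11 of 13 in retina belonged to a single protein, MRPS5. Best hits came from entries of 8 mammals, and the highest transcripts had a median similarity of 90% to their hit in each tissue. Counting error was small: behind the highest transcripts stood 410 to 32223 reads in eye and 1237 to 39068 in retina. The 95% Poisson interval of a member's difference had a median half-width of 0.044 in log2 with 0.15 as its maximum. Such intervals hold counting error alone and treat reads as independent. Since recovered reads summed to more than the totals, reads may be shared between transcripts, and the intervals may be too narrow.

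Members stood at moderate and uneven levels. For the 75 proteins found in both tables, the median level was 25.0 RPKM in eye against 20.8 in retina. Over all proteins the medians were 9.41 and 8.86 RPKM, and 78.1% of all proteins in eye and 74.6% in retina lay below the members' median. Although the subunits are built into the ribosome in nearly equal numbers, their transcript levels spanned 31.0-fold in eye, from MRPL42 to MRPS5. In retina the span between the same proteins was 56.1-fold. The level of MRPS5, at the upper end, is uncertain, as given below. The next highest was MRPL54 in eye, at 92.5 RPKM. In retina it was MRPS36, since assigned to another complex, at 95.1 RPKM, followed by MRPL55 at 59.0. The central part was narrower, with quartiles at 16.0 and 40.9 RPKM in eye and at 13.6 and 29.8 in retina.

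**Figure D1:**
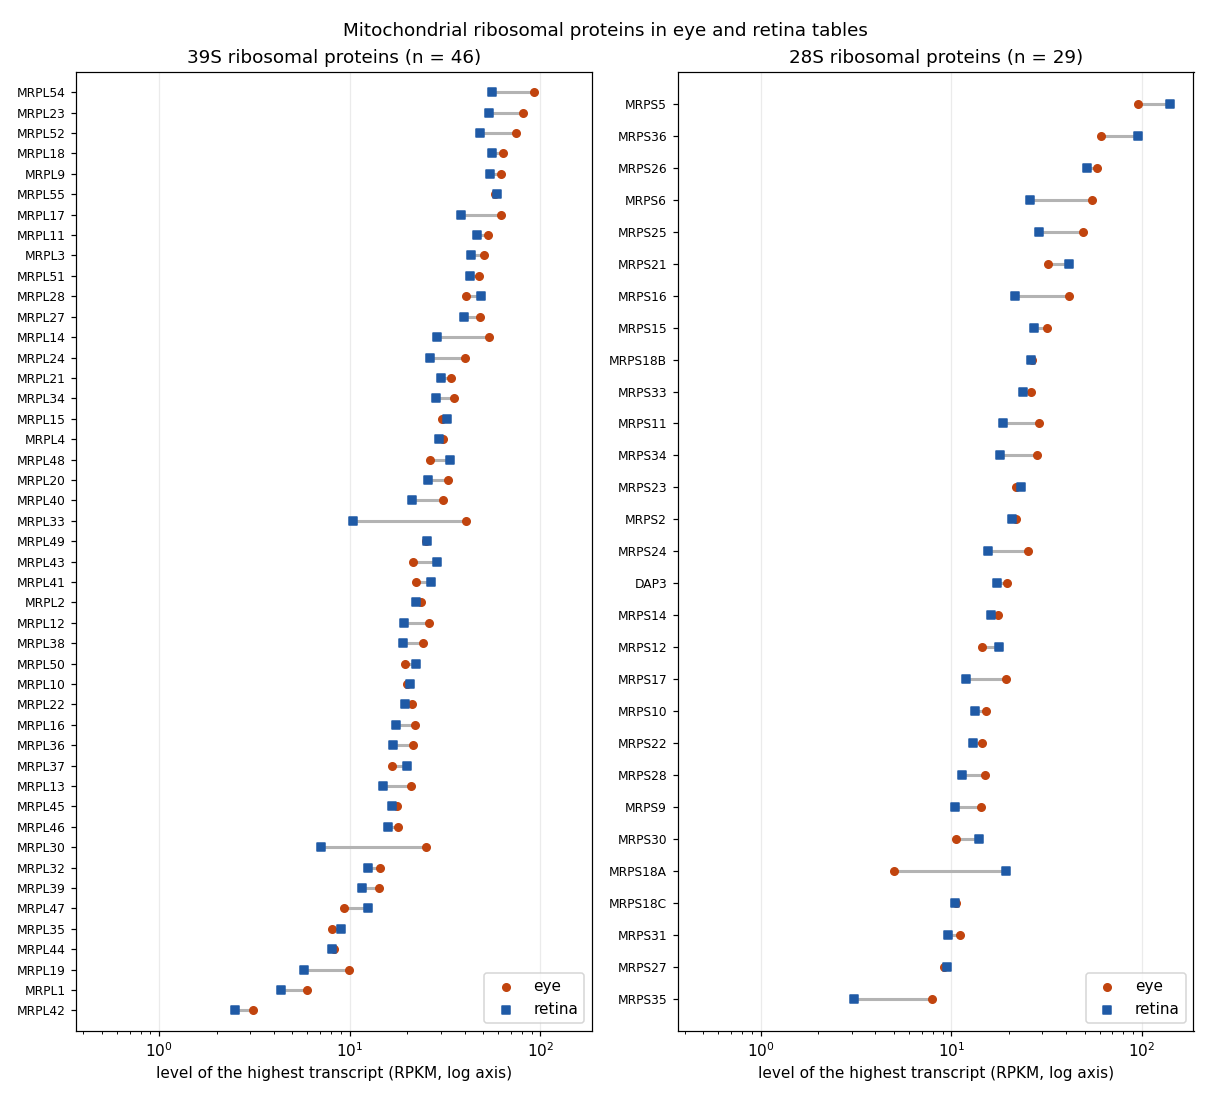
Level of each of the 75 proteins found in both tables, on a log axis in RPKM, for eye (circles) and retina (squares), with 39S proteins left and 28S proteins right, ordered by mean level. Most pairs of points lie close together, and the widest gaps belong to MRPL33, MRPL30, MRPS18A and MRPS35; each point is 1 pooled value with no replicate error.

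Ranked by the mean of both tissues, the highest levels were those of MRPS5, with 95.7 RPKM in eye against 140 in retina, and of MRPS36, at 61.0 and 95.1. Next came MRPL54, at 92.5 and 55.6 RPKM, and MRPL23, at 80.9 and 53.8. MRPL52 (74.5 and 48.2), MRPL18 (63.8 and 55.9) and MRPL9 (62.4 and 54.6) followed, with MRPL55 at 58.0 and 59.0 RPKM. The highest group thus mixed subunits of bacterial descent, such as MRPL23, MRPL18 and MRPL9, with subunits found only in mitochondria, such as MRPL54 and MRPL52. MRPS36 has since been assigned to the alpha-ketoglutarate dehydrogenase complex of the citric acid cycle. Its rank rests on 1 transcript per tissue: its best-matching transcripts, aligned over the same 103 residues, had 17.96 and 27.9 RPKM. MRPS26, MRPL17, MRPL11 and MRPL3 completed the highest 12 by that mean, at 58.0, 61.8, 53.0 and 50.8 RPKM in eye and at 51.6, 38.2, 46.8 and 43.2 in retina.

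By the same mean, the lowest levels were those of MRPL42, with 3.09 RPKM in eye against 2.50 in retina, MRPL1, at 5.99 and 4.37, and MRPS35, at 7.89 and 3.07. MRPL19, at 9.90 and 5.78 RPKM, and MRPL44, at 8.27 and 8.07, were the other two of the lowest 5. The order within a tissue differed: in eye MRPS18A, at 5.02 RPKM, lay below all of these but MRPL42. Their transcripts were long, between 1485 and 4341 bases. The order of the members was similar in the tables: across the 75, log2 levels had a Pearson's r of 0.86 and levels a Spearman's rho of 0.87. These are descriptions across genes, which share the 2 pooled samples and the same hits.

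Between the tissues the members differed little by their highest transcripts. Of the 75, 57 lay within 1.5-fold, while 16 passed 1.5-fold in favour of eye and 2 in favour of retina, MRPS18A and MRPS36. Among all 13383 proteins compared, 20.0% and 11.4% passed 1.5-fold in those directions. At 2-fold, 4 members were higher in eye, MRPL33, MRPL30, MRPS35 and MRPS6, and 1 in retina, MRPS18A. That is 5.33% and 1.33% of the members, where 11.8% and 3.60% of all proteins passed.

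Small differences leaned towards eye with the deposited scaling. There, 55 members were higher in eye and 20 in retina, where 49.7% of all proteins were higher in eye and 50.3% in retina, but this lean depended on the scaling. With both tissues set to an equal total over proteins, 30 members were higher in eye and 45 in retina, where 33.6% and 66.4% of all proteins were. The median difference was 0.18 as deposited, against -0.0035 for all proteins. Equal totals moved these medians to -0.084 and -0.24. The members' median thus stood 0.18 above that of all proteins as deposited and 0.16 above it with equal totals. Equal totals multiplied eye levels by 0.825. The totals include markers such as CRYBB2, at 2743 RPKM in eye and 0.667 in retina, whose part in that factor was not tested. Scaling eye by the median ratio over proteins, a factor of 1.0029, gave medians of 0.18 for members and 0 for all proteins. The interval of the ratio covered 1 for only 4 members, MRPL55, MRPL44, MRPS18B and MRPS18C.

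**Figure D2:**
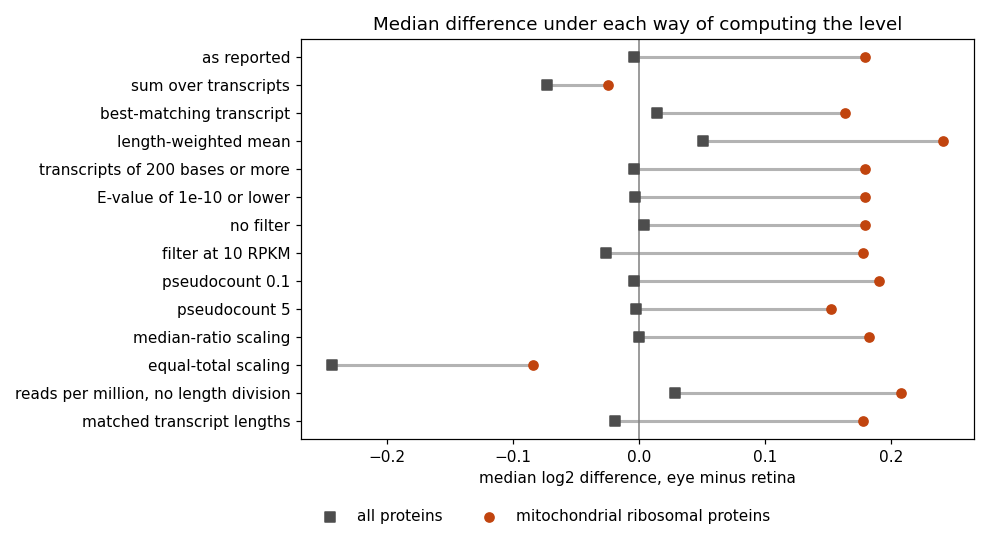
Median log2 difference, eye minus retina, of the members (circles) and of all proteins (squares) under each way of computing the level; the top line is the one reported. The members' median lies to the right of that of all proteins in each line, by 0.048 with summed transcripts and by 0.15 to 0.20 otherwise, and lies below 0 with summed transcripts and with equal totals.

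MRPS6 and MRPS35, both of the small subunit, were the most evenly measured of the differing members. MRPS6, a counterpart of bacterial S6, reached 54.5 RPKM in eye and 25.8 in retina, on transcripts of 958 and 947 bases. The ratio was 2.11 (95% counting interval 2.05 to 2.17). Its 3 eye transcripts stood at 43.1, 45.5 and 54.5 RPKM and its 3 in retina at 22.4 to 25.8. Transcripts of a protein may share reads and are not replicates. The MRPS6 difference of 1.05 fell below 2-fold with sums (0.98), length-weighted means (0.99), 5 added in place of 1 (0.95) and equal totals (0.78). MRPS35, a subunit particular to mitochondria, had 7.89 RPKM in eye against 3.07 in retina. It had 1 transcript per tissue, of 4240 and 4341 bases, each aligned over 324 residues, and a ratio of 2.57 (2.48 to 2.66). The MRPS35 difference of 1.13 fell below 2-fold with 5 added in place of 1 (0.68) and with equal totals (0.88).

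MRPL33 and MRPL30, counterparts of small bacterial large-subunit proteins, had the widest differences among members higher in eye, on transcripts of unequal length. MRPL33 had 40.9 RPKM in eye against 10.4 in retina, which is a difference of 1.88. Its eye transcript had 502 bases and 5422 reads, and its retina transcript 1291 bases and 4757 reads. Without division by length, on a scale of reads over the library total written as RPM, this came to 20.5 in eye and 13.4 in retina, with a difference of 0.58. For MRPL30 the levels were 25.0 and 7.02 RPKM, on transcripts of 732 and 2163 bases. Its RPM values were 18.3 and 15.2, so that the difference of 1.70 became 0.25. In each case the transcript was aligned over the same number of residues in both tissues, 65 for MRPL33 and 158 for MRPL30, so the longer retina transcript added bases outside the aligned part.

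MRPS18A, 1 of 3 related copies of bacterial S18, was the member at least 2-fold higher in retina, at 19.3 RPKM against 5.02 in eye. In eye it rested on a single transcript of 309 bases with 410 reads, the fewest of any member, aligned over 83 residues. In retina it had 3 transcripts, at 19.3, 16.0 and 5.73 RPKM, the first of 670 bases and aligned over 196 residues. The ratio of retina to eye was 3.85 (3.48 to 4.26), and RPM values were 13.0 and 1.55. With the length-weighted mean over transcripts, to which the retina transcript of 8044 bases contributes most, the difference was -0.44 instead of -1.76. The related MRPS18B and MRPS18C stood nearly level, at 26.5 and 26.1 RPKM and at 10.6 and 10.5. Despite its name, MRPS18A is a protein of the large subunit.

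**Figure D3:**
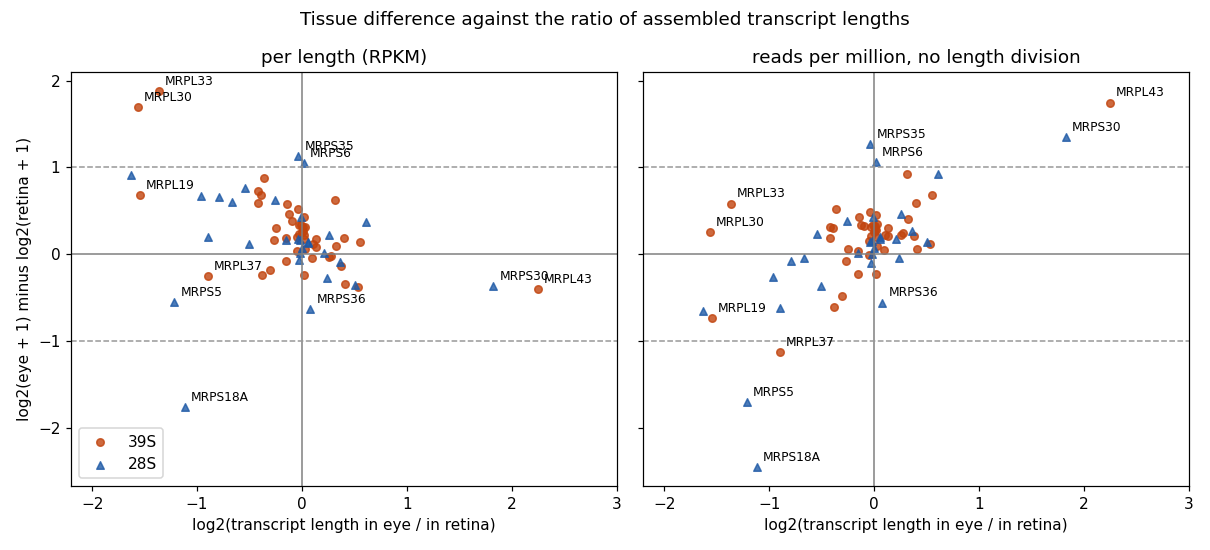
Difference between tissues (y, log2 of eye + 1 minus log2 of retina + 1) against the log2 ratio of the lengths of the transcripts compared (x, eye over retina), for 75 members, in RPKM (left) and in RPM (right); dashed lines mark 2-fold. MRPL33 and MRPL30 pass 2-fold only on the left and MRPL43, MRPS30, MRPS5 and MRPL37 only on the right, the last 2 towards retina, while MRPS6 and MRPS35 lie at equal lengths and pass on both sides.

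The length assembled in each tissue moved with the differences of the other members too. For 46 of the 75 the lengths compared differed by under 1.25 times. Of these, 37 were higher in eye and 9 in retina, with a median of 0.18. Among all 7251 proteins with such lengths, 48.1% were higher in eye and 51.9% in retina, and the median was -0.019. At 2-fold, MRPS6 and MRPS35 were then the only members higher in eye and none was higher in retina, against 8.81% and 1.65% of these proteins. Of the 18 members whose transcript was shorter in eye beyond that limit, 14 were higher in eye by RPKM, but 7 in RPM. All 11 members with a longer transcript in eye were higher there in RPM, and 4 were by RPKM. Across the 75 the log2 length ratio had a Pearson's r of -0.38 with the RPKM difference and of 0.65 with the difference in RPM. Length enters these measures by construction, and the values are a description.

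In RPM, 56 of the 75 members were higher in eye, where 51.8% of all proteins were, and the median was 0.21 against 0.028. MRPL43, MRPS30, MRPS35 and MRPS6 were then at least 2-fold higher in eye, and MRPS18A, MRPS5 and MRPL37 in retina, against 18.2% and 9.47% of all proteins. MRPL43, a subunit particular to mitochondria, shows how the choice of transcript acts. Its highest retina transcript was a fragment of 391 bases at 28.7 RPKM, while another of 1372 bases, aligned over all 155 residues that the eye transcript also covered, stood at 27.6 RPKM. In eye it was at 21.5 RPKM.

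The remaining differences are given by the place of each protein in the large subunit. The stalk, where translation factors bind, is built from MRPL10, MRPL11 and MRPL12. MRPL12, which forms the mobile part of the stalk, had 26.2 RPKM in eye against 19.2 in retina, MRPL11 had 53.0 and 46.8, and MRPL10 had 20.1 and 20.8. The stalk protein that is present in several copies per ribosome, MRPL12, was thus not the one with the highest RPKM in either tissue. In RPM it was the highest in eye, at 62.4 against 60.6 for MRPL11, but not in retina, at 45.2 against 52.9. By sums over transcripts all 3 were higher in retina, with a median of -1.14, where 53.2% of all proteins were. With equal totals the MRPL11 difference of 0.18 became -0.095.

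Around the exit of the peptide tunnel, where new chains leave towards the inner membrane, 5 of 6 members were higher in eye as deposited, with a median of 0.35. By sums over transcripts 3 of 6 were, with a median of -0.011. Of all proteins, 49.7% were higher in eye as deposited and 46.8% by sums. MRPL17 had 61.8 RPKM in eye against 38.2 in retina, MRPL23 had 80.9 and 53.8, and MRPL24 had 40.3 and 26.4. MRPL22, at 21.2 and 19.5 RPKM, and MRPL45, a contact of the inner membrane at 17.6 and 16.6, lay close together, and with equal totals their differences became -0.14 and -0.18. MRPL47, a counterpart of bacterial L29, was lower in eye, at 9.38 and 12.4 RPKM, but its eye transcript was 2700 bases long and that of retina 1868. In RPM it stood at 25.3 and 23.2.

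In the central protuberance, which faces the small subunit, 5 of 7 members were higher in eye as deposited and 2 lower, where 49.7% of all proteins were higher. MRPL40 had 30.9 RPKM in eye against 21.2 in retina, MRPL38 had 24.2 and 18.9, MRPL27 had 48.1 and 39.98, and MRPL18 had 63.8 and 55.9. MRPL46 was at 18.0 and 15.9 RPKM. The 2 lower ones were MRPL48, at 26.3 and 33.5, and MRPL55, at 58.0 and 59.0. All but MRPL40 and MRPL38 were lower in eye with equal totals. By sums eye was the higher for 2 of the 7, with a median of -0.13, and for 46.8% of all proteins. With best-matching transcripts the count was again 5 of 7, but 2 members turned. MRPL18 then had 41.3 RPKM in eye against 55.9 in retina, and MRPL48 had 26.3 and 18.0.

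Subunits with and without a bacterial counterpart showed overlapping differences. As deposited, 49.7% of all proteins were higher in eye. In the large subunit, eye was the higher for 24 of 30 proteins with a counterpart, median 0.25, and for 10 of 17 particular to mitochondria, median 0.081. The latter count includes MRPS30, which is named after the small subunit but belongs to the large one. In RPM these medians were 0.25 and 0.28. The difference between these lists was not tested. The small-subunit list particular to mitochondria holds MRPS36, since assigned to another complex, which had the lowest difference in it, -0.63. Among small-subunit names, which for the list include MRPS18A, the numbers were 13 of 17 with a counterpart, median 0.18, and 8 of 11 particular to mitochondria, median 0.16. These turned to 9 of 17 and 0.0050 and to 8 of 11 and 0.18 in RPM, where 51.8% of all proteins were higher in eye. With equal totals all 4 medians were negative, at -0.025, -0.18, -0.079 and -0.11 in the order given.

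Defects in some members cause combined oxidative phosphorylation deficiency in people. Of 12 such genes listed, MRPS7 was in the retina table only. All 11 others listed were higher in eye as deposited, where 49.7% of all proteins were. The list was made with earlier results of these data known and may leave out other such genes. The count therefore covers the listed genes only. None of the 11 passed 2-fold, and their median was 0.37. MRPS16 had the widest gap, with 41.5 RPKM in eye against 21.5 in retina, on transcripts of 474 and 1464 bases. MRPS25 stood at 49.4 and 28.7 RPKM, MRPS34 at 28.1 and 17.9, and MRPL3, near the peptidyl transferase centre, at 50.8 and 43.2. The MRPS34 transcript compared was aligned over 97 residues in eye and over 218 in retina. With best-matching transcripts its difference of 0.62 became 0.087, and all 11 members stayed higher in eye, with a median of 0.23. For MRPS28 the levels were 14.98 and 11.4, for MRPS14 17.6 and 16.2, and for MRPS22 14.4 and 13.1. MRPS2 (21.9 and 20.8) and MRPL44 (8.27 and 8.07), a relative of ribonuclease III, lay nearly level. With equal totals eye was the higher for 6 of the 11, with a median of 0.11, and for 33.6% of all proteins. By sums it was also 6 of the 11, with a median of 0.14, and 46.8% of all proteins. In RPM 8 of the 11 and 51.8% of all proteins were higher in eye, and MRPS16 stood at 19.7 and 31.5, the reverse order.

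Other wide gaps in favour of eye were those of MRPL14, with 53.5 RPKM in eye against 28.6 in retina, and MRPL54, at 92.5 and 55.6. Their transcripts were 714 and 917 and 1319 and 1766 bases long. In RPM MRPL14 stood at 38.2 and 26.3 and MRPL54 at 122 and 98.2, with both again higher in eye. The MRPL54 transcript compared was aligned over 88 residues in eye and over 139 in retina. Its best-matching eye transcript, also aligned over 139 residues, had 67.1 RPKM, and the difference of 0.72 became 0.27.

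Members higher in retina had small differences apart from MRPS18A. MRPS36 had 61.0 RPKM in eye against 95.1 in retina, a ratio of retina to eye of 1.56 (1.53 to 1.59), on transcripts of 1219 and 1154 bases. It kept this direction in RPM, at 74.3 and 110. MRPL43 was at 21.5 and 28.7 RPKM, MRPS30 at 10.6 and 13.9, and MRPS21, a counterpart of bacterial S21, at 32.0 and 41.3. In RPM MRPS21 stood at 46.0 and 41.8, MRPL48 at 32.2 and 30.9, and MRPS30 at 26.0 and 9.62, all in the reverse order. The MRPS30 transcript compared had 2454 bases and 425 aligned residues in eye, but 692 bases and 210 residues in retina. With best-matching transcripts MRPS30 lay nearly level, at 10.6 and 10.3 RPKM. MRPS12, which lies at the decoding centre, was at 14.5 and 17.7 RPKM, and RPM values were 25.7 and 26.6. MRPS36 and MRPS12 are 2 of the 9 members that were lower in eye on transcripts of similar length.

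The level of MRPS5, nominally the highest, is uncertain. It lines the path of the messenger RNA in the small subunit. Its hits were spread over 40 transcripts in eye, with a median of 154 bases, and 22 in retina, with a median of 200 bases. No other member had more than 8 in eye or 9 in retina. The highest were a fragment of 155 bases aligned over 46 residues in eye and one of 360 bases aligned over 81 in retina. Fragments ranged from 5.89 to 95.7 RPKM in eye, with a median of 68.1, and from 25.2 to 140 in retina, with a median of 71.5. The longest alignment was 129 residues in eye and 208 in retina, and those transcripts stood at 83.8 and 86.6 RPKM. So the best-matching fragments lay nearly level, where the highest ones gave a difference of -0.55 and the sums, with more fragments in eye, 0.69.

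MRPL53 and MRPS7 were in the retina table only. MRPL53, a subunit particular to mitochondria, had transcripts of 1543 and 1937 bases at 15.2 and 15.1 RPKM, aligned over 54 and 112 residues. MRPS7, a counterpart of bacterial S7 at the head of the small subunit, had 1 transcript of 678 bases at 19.5 RPKM. Both levels lay within the middle quartiles of the members in retina, and no member was in the eye table only. A protein without a transcript in a table has no value there, and no fold was computed.

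Sums over transcripts followed the number of transcripts assembled. Retina had more transcripts than eye for 33 members, and 32 of these had the higher sum in retina. Eye had more for 19, and all 19 had the higher sum in eye. For the 23 members with equal numbers, 17 had the higher sum in eye, with a median of 0.37. In all, sums put 37 members higher in eye and 38 in retina, where 46.8% and 53.2% of all proteins were. At 2-fold, 17 of the 75 members were higher in eye and 14 of the 75 in retina, where 16.8% and 19.3% of all proteins passed.

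Mitoribosomal proteins that do not carry the name in Swiss-Prot stood in the same range, with 1 exception. Under its entry name RT63, the large-subunit protein MRPL57 had 157 RPKM in eye against 218 in retina, above every member in both tables. ICT1, a release factor built into the large subunit, was at 27.4 and 16.3 RPKM, the Aurora kinase A-interacting protein AKIP at 30.4 and 24.1, CHCH1 at 22.7 and 22.9, and PTCD3, which sits where messenger RNA enters the small subunit, at 16.4 and 21.3. G45IP, a large-subunit protein, was in the eye table only, at 20.1 RPKM. None of the 5 in both tables passed 2-fold. Their median difference was -0.014, and it was positive in RPM (0.070), with best-matching transcripts (0.087), with length-weighted means (0.31) and with sums (0.79).

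Translation factors, which work on the ribosome, were higher in retina for 9 of the 12 found and in eye for 3, with a median of -0.13. Of all proteins, 50.3% were higher in retina. The elongation factors EFTU (41.5 and 43.7 RPKM in eye and retina), EFGM (16.8 and 19.2) and EFTS (14.6 and 20.0) lay within 1.5-fold. The initiation factors differed in opposite directions. IF3M, which keeps the ribosomal subunits apart, had 22.9 RPKM in eye against 8.65 in retina, and IF2M, which places the first transfer RNA, had 4.65 and 16.3. The lengths compared were 1619 and 1638 bases for IF3M and 3357 and 3387 for IF2M. OXA1L, the insertase at the tunnel exit, was at 19.0 and 25.3 RPKM.

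Assembly factors were split, with 7 of 16 higher in eye and a median of -0.051, where 49.7% of all proteins were higher in eye. NGRN, the highest of them, had 118 RPKM in eye and 116 in retina, and MET17 had 36.8 and 41.2. DHX30, an RNA helicase, had 26.6 and 45.8 RPKM, on transcripts of 3626 and 638 bases, and 96.4 and 29.2 in RPM, the reverse order. MASU1, which keeps the subunits apart while the large one is completed, was the one factor past 2-fold, at 20.9 and 4.63 RPKM, on transcripts of 1004 and 2202 bases. In RPM it had 21.0 and 10.2, a difference of 0.98. Of 19 mitochondrial aminoacyl-tRNA synthetases and amidotransferase subunits, 5 were higher in eye and 14 in retina, with a median of -0.049. In RPM the medians of assembly factors and synthetases turned positive, at 0.28 and 0.048, and with length-weighted means that of assembly factors was 0.11. The alanine enzyme SYAM had 6.02 and 24.9 RPKM on transcripts of 3263 and 3281 bases. Of 8 proteins of mitochondrial RNA synthesis and upkeep, eye was the higher for 5, and the median was 0.076. This median was negative in RPM (-0.028), with best-matching transcripts (-0.073), with length-weighted means (-0.042) and with sums (-0.37). The RNA polymerase RPOM had 9.11 and 20.3 RPKM, on transcripts of 3773 and 629 bases, and 34.4 and 12.8 in RPM. With equal totals the medians of these 4 lists lay between -0.37 and -0.17, and none of these lists was tested against the ribosomal members.

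**Figure D4:**
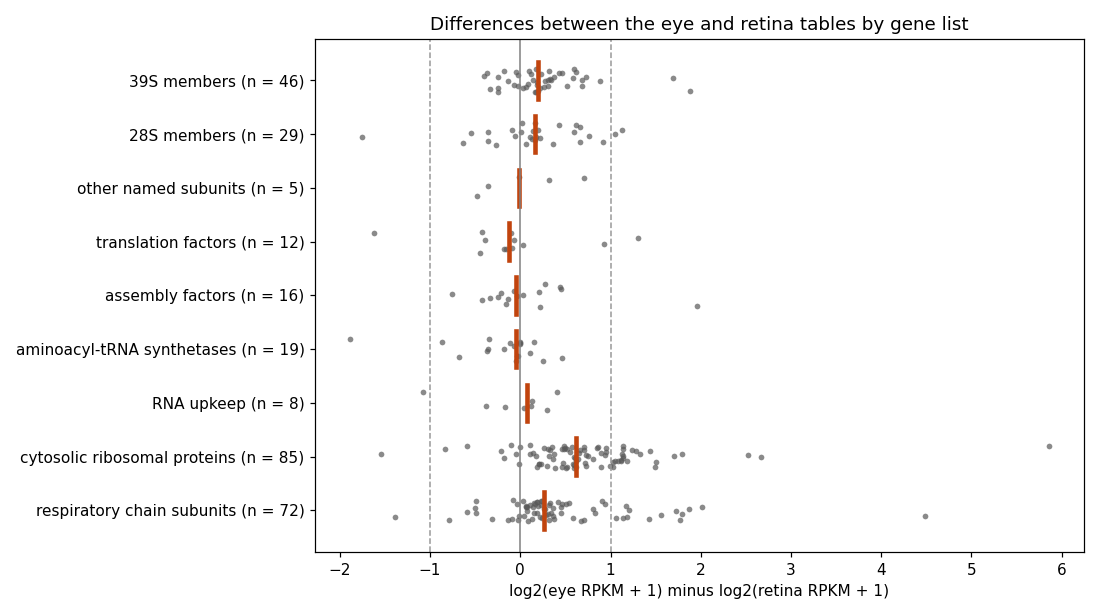
Log2 difference, eye minus retina, of each protein (points, spread vertically for visibility) by gene list, with the list median as a bar; dashed lines mark 2-fold. As deposited, the 39S and 28S medians are 0.19 and 0.16 and those of translation factors, assembly factors and synthetases lie below 0 (assembly factors and synthetases above 0 in RPM); with equal totals the 39S and 28S medians are -0.071 and -0.11.

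Beside the members, cytosolic ribosomal proteins stood far higher and leaned further towards eye, and the levels of respiratory chain subunits lay between. The median level of 85 cytosolic ribosomal proteins was 449 RPKM in eye and 257 in retina, with 76 higher in eye and a median difference of 0.61. For 72 nuclear-encoded respiratory chain subunits the median levels were 100 and 90.3 RPKM, with 59 higher in eye and a median of 0.26. Of all proteins, 49.7% were higher in eye. The 39S members had median levels of 25.6 and 23.9 RPKM and a median difference of 0.19, and the 28S members 21.8 and 17.9 RPKM and 0.16. At 2-fold 23 cytosolic and 13 respiratory chain proteins were higher in eye, 1 of each in retina, where 11.8% and 3.60% of all proteins passed. The median of respiratory chain subunits lay below that of the members with best-matching transcripts, at 0.10 against 0.16, and with length-weighted means, at 0.20 against 0.24. In RPM the median differences were 0.31 for cytosolic, 0.24 for respiratory chain, 0.25 for 39S and 0.14 for 28S proteins, and with equal totals 0.34, -0.012, -0.071 and -0.11, the last 3 in the reverse direction.

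The direction of most single members depended on the measure. Over the 13 other ways of computing the level, 24 of the 75 members kept the sign of their difference wherever a value could be given, 18 of them higher in eye and 6 in retina. That is 32% of the members, and 24% for those higher in eye, where 52.9% of all proteins kept their sign and 25.0% did so as higher in eye. Those higher in eye included MRPS6, MRPS35, MRPL30, MRPL33, MRPL14, MRPS25, MRPL54 and MRPL17, and those higher in retina MRPS18A, MRPS36, MRPL41, MRPL50, MRPL15 and MRPS27. No member stayed past 2-fold under all of them, against 5.01% of all proteins. With pseudocount 5 and with equal totals 2 members were at least 2-fold higher in eye, MRPL33 and MRPL30, against 6.09% and 8.75% of all proteins. With length-weighted means none passed 2-fold in favour of retina, against 2.05%.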

How the data were processed

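Per the file headers, each tissue has a table of expression values and lengths per assembled transcript and a table of best Swiss-Prot hits. The unit is inferred: the deposited expression values behave as RPKM, since value times length was a whole multiple of 1 constant within 0.01 reads for 100% of transcripts. The deposited hit tables give an alignment score and a similarity in percent. The submitters' processing notes name Bowtie. The sources used here do not name the assembler, the counting mode or the search program. Each table holds 1 value per transcript for its tissue, taken as pooled over that tissue's libraries.

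Tables were read with pandas 2.3.3 in Python 3.11.15. Hits were joined to values by transcript. Proteins at 1 RPKM or more in either tissue and found in both tables were compared, with pseudocount 1 and a mark of 2-fold. Recovered reads gave Poisson intervals at 95%. The measures were run on simulated reads with known differences. Both simulated tissues used the retina transcripts and lengths, so unequal assembly between tissues was not part of this check. The members and gene lists were chosen with earlier results of these data known. Members named are the highest 12 and lowest 5 in level, those past 2-fold, the 8 largest differences in each direction, those in 1 table and the role lists. Other examples were chosen after their values were seen, as were RPM (no division by length) and lengths within 1.25 times as alternatives. AKIP1 was dropped from the list of other subunits, since its description is of another protein, and assembly factors were left out of the respiratory list. Gene lists were matched by entry name, and names not found under any listed spelling were left out. RefSeq was used for names only.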

Additional observations from a re-analysis of the deposited data

How the results depend on the processing

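No paired analysis was possible because each table holds 1 value per tissue for all its libraries, and for the same reason no library could be left out. At 2-fold, 4 members were reported as higher in eye and 1 as higher in retina. Members higher in eye at 2-fold numbered 17 with summed transcripts and 2 with pseudocount 5, with equal totals and with matched lengths. Members higher in retina numbered 14 with sums, 3 in RPM and 0 with length-weighted means and with matched lengths, where fewer proteins are compared (46 members). For all proteins, the eye count of 1577 became 921 with the filter at 10 RPKM, 815 with pseudocount 5, 2434 in RPM and 639 with matched lengths. The retina count of 482 became 2637 with sums, 272 with length-weighted means, 265 with pseudocount 5, 877 with equal totals, 1267 in RPM and 120 with matched lengths. The cause of other changes was not tested.

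With sums, median differences were -0.025 for members, -0.069 for 39S, -0.073 for all proteins, -0.045 for 39S proteins with a bacterial counterpart, -0.47 for those without, -1.14 for the stalk, -0.011 for the tunnel exit, -0.13 for the central protuberance, 0.79 for subunits without the name, -0.29 for assembly factors, -0.49 for synthetases, -0.37 for RNA upkeep and 1.41 for cytosolic ribosomal proteins. With equal totals they were -0.084 for members, -0.071 for 39S, -0.11 for 28S, -0.24 for all proteins, -0.025 for 39S with a counterpart, -0.079 and -0.11 for 28S with and without one, -0.095 for the stalk, -0.29 for assembly factors, 0.34 for cytosolic and -0.012 for respiratory proteins. In RPM they were 0.028 for all proteins, 0.28 for 39S without a counterpart, 0.0050 for 28S with one, 0.28 for assembly factors, 0.048 for synthetases and 0.31 for cytosolic proteins. With best-matching transcripts they were 0.014 for all proteins, 0.37 for cytosolic and 0.10 for respiratory proteins. With length-weighted means they were 0.11 for assembly factors and 0.31 for subunits without the name. All proteins had 0.051 with length-weighted means, -0.027 with the filter at 10 RPKM and -0.019 with matched lengths. No member past 2-fold changed sign under any alternative run.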
